A study of Danio rerio with 10 samples.

Results

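Maternal transcripts that zebrafish (Danio rerio) embryos had cleared by the dome stage are described here: 56 of the 16383 Ensembl transcripts in the count table. A transcript belonged to the set if it had at least 10 CPM (counts per 1000000 counts of the library) in the nuclear and cytosolic libraries of both 64-cell and 256-cell embryos. In addition, its CPM in each of the 4 nuclear and cytosolic libraries of dome and shield embryos had to be at most 0.333 of its mean over those 4 early libraries. In all, 4072 transcripts met the early minimum, so the set is a small part of them, and the other 4016 serve as its comparison. The members were thus selected on their measured 64-cell, 256-cell, dome and shield values, and the contrast between those early and late stages is a description. The 1000-cell libraries took no part in that choice, although the 64- and 256-cell values they are set against did. The rule held nuclear and cytosolic libraries to the same limits at 4 of the 5 stages, without setting which was higher. It did not bound the ratio between them, and its early mean is raised by a single high value in either fraction.

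The embryos came from wild-type AB-strain fish and were pooled by stage, with no treatment other than enzymatic removal of the chorion. The stages were cleavage at 64 and at 256 cells, the 1000-cell stage, dome and shield, taken from the sample titles since the labels' growth protocol does not list dome. Pools were broken up in a lysis buffer and spun, and the pellet was taken as the nuclear and the supernatant as the cytosolic fraction. The purity of these fractions was not tested here, so nuclei and cytosol stand below for these libraries. Total RNA, after removal of ribosomal RNA with a kit designed for mammalian samples, was sequenced in 1 nuclear and 1 cytosolic library per stage, 10 in all. No stage was replicated within a fraction, and whole embryos were lysed, so all cell types were read together.

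An egg is loaded with maternal messenger RNA that directs the first divisions, while the embryo's own genome is largely silent. During the maternal-to-zygotic transition these messages are removed in overlapping ways. Some are destabilised by proteins that the egg itself supplies, through shortening of the poly(A) tail, and others fall only once the embryo transcribes its own genes, in zebrafish including the microRNA miR-430, which promotes deadenylation and decay of its targets. In zebrafish the main onset of transcription falls in the blastula, after the 1000-cell stage begins, and dome is a later blastula stage. Shield marks early gastrulation. In a pool of embryos, fewer cells holding a transcript and less of it per cell cannot be told apart, and CPM gives a share of the library, not a number of molecules.

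Members are given by their Ensembl ID, since 0 of the 16383 IDs had a name in the count table or in the gene tables at hand. Their functions, germ-plasm or oocyte lists and cell type markers were not analysed here. Library totals ran from 5909037 counts in the nuclear shield library to 14311969 in the cytosolic 64-cell library. At these depths 3 counts correspond to 0.21 to 0.508 CPM.

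The members were mostly of moderate abundance while they were present. Their mean early level had a median of 58.4 CPM, with quartiles of 27.1 and 108 CPM, against 106 CPM for the other early-abundant transcripts (quartiles 40.7 and 262 CPM). Of the 56, 7 lay under 20 CPM and 6 over 200 CPM, and 1 was among the 100 most abundant of the 4072. That transcript, ENSDART00000152521, stood at rank 7. In order of stage it had 7626, 4968, 9669, 894 and 46.0 CPM in the nuclear libraries, and 2153, 2079, 1814, 843 and 49.9 CPM in the cytosolic libraries. It was thus several times higher in the nuclear than in the cytosolic libraries up to the 1000-cell stage and level between them at dome and shield. It alone made up 70.8% of the members' counts in the 1000-cell nuclear library. The second most abundant member, ENSDART00000124492, had 781, 232, 161, 114 and 0 CPM in the nuclear libraries in order of stage. In the cytosolic libraries it had 1024, 687, 262, 127 and 16.6 CPM, so it was lower at each later stage in both fractions and at 1000-cell had well under its 64-cell level. Its log2 fold change at 1000-cell over 64- and 256-cell was -1.66 (SE 0.52), which did not pass (edgeR adjusted p = 0.67).

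**Figure D1:**
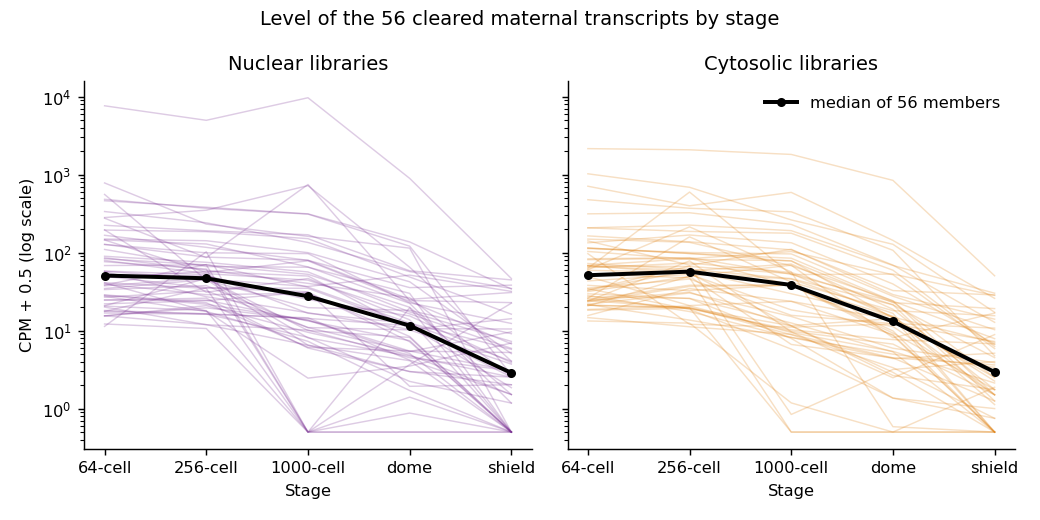
CPM plus 0.5 (log scale) of each of the 56 members at the 5 stages, in nuclear (left) and cytosolic (right) libraries, with 1 library per point; thin lines are members and the black line is their median. The median stays near 50 CPM through 256-cell, lies lower at 1000-cell and reaches 2.37 CPM in the nuclear and 2.44 CPM in the cytosolic library at shield.

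In both fractions the median of the set was lower at each stage after 256-cell. In order from 64-cell to shield the median member had 50.3, 46.4, 27.1, 11.1 and 2.37 CPM in the nuclear libraries. In the cytosolic libraries the medians were 50.8, 56.5, 38.0, 12.6 and 2.44 CPM. Relative to the early mean, the dome level had a median ratio of 0.223 (quartiles 0.151 and 0.272) and the shield level one of 0.0618 (0.0122 and 0.113). For the other early-abundant transcripts the median dome ratio was 0.908. Cleared is thus the word for at most 0.333 of the early level, not for absence, and 2 members had 0 counts in the nuclear and 3 in the cytosolic dome library.

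Summed over all 56, the members held 1.38, 0.918, 1.37, 0.207 and 0.0448% of the counts in the nuclear libraries in order of stage. In the cytosolic libraries they held 0.775, 0.765, 0.541, 0.205 and 0.0371%. The high nuclear share at 1000-cell rested on ENSDART00000152521, without which it was 0.399%, against 0.619% at 64-cell and 0.422% at 256-cell. The cytosolic share without that transcript was 0.36% at 1000-cell, against 0.559% at 64-cell and 0.558% at 256-cell.

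The dome libraries were the stricter part of the rule. Of the 4072 early-abundant transcripts, 79 met the limit in both dome libraries, 1200 in both shield libraries and 56 in all 4. The library nearest to the limit was the nuclear dome library for 17 members, the cytosolic dome library for 31, the nuclear shield library for 6 and the cytosolic shield library for 2. Just inside the limit, the highest of the 4 late values was 0.331 of the early mean for ENSDART00000155688 and 0.33 for ENSDART00000123598. Just outside it, the same ratio was 0.334 for ENSDART00000012873 and 0.336 for ENSDART00000019059. The edge of the set is therefore a continuum and not a gap.

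Most members were lower still after dome. At shield 42 of the 56 had a lower CPM than at dome in both fractions, against 2497 of the other 4016 (62.2%). The 1 member higher at shield in both was ENSDART00000155842, with 13.7 against 9.86 CPM in nuclei and 8.39 against 1.98 CPM in the cytosol. The median shield level was 0.352 of the dome level over the 55 members with counts at dome. For the other early-abundant transcripts it was 0.589. At shield 15 members had 0 counts in nuclei, 10 had 0 in cytosol and 8 had 0 in both. Shield values helped to choose the members, so this difference is a description.

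In 2 members both 1000-cell libraries had 0 counts. ENSDART00000102734 had 40.7 and 34.2 CPM (342 and 240 counts) in the nuclear libraries at 64-cell and 256-cell, and 52.7 and 47.0 CPM (754 and 444 counts) in the cytosolic libraries. It had 0 counts in all 6 libraries from 1000-cell on. ENSDART00000148111 was at 20.1 and 17.5 CPM in early nuclear and 20.6 and 19.1 CPM in early cytosolic libraries. It had 0 counts at 1000-cell and shield, and 5 counts in the nuclear library at dome. These 2 transcripts had the lowest dome to early ratios of the set, 0 and 0.00973. No stage was replicated, so a difference between pools of embryos cannot be told apart from one between stages. The part of read counting among overlapping transcript models in these 0 counts was not tested.

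**Figure D2:**
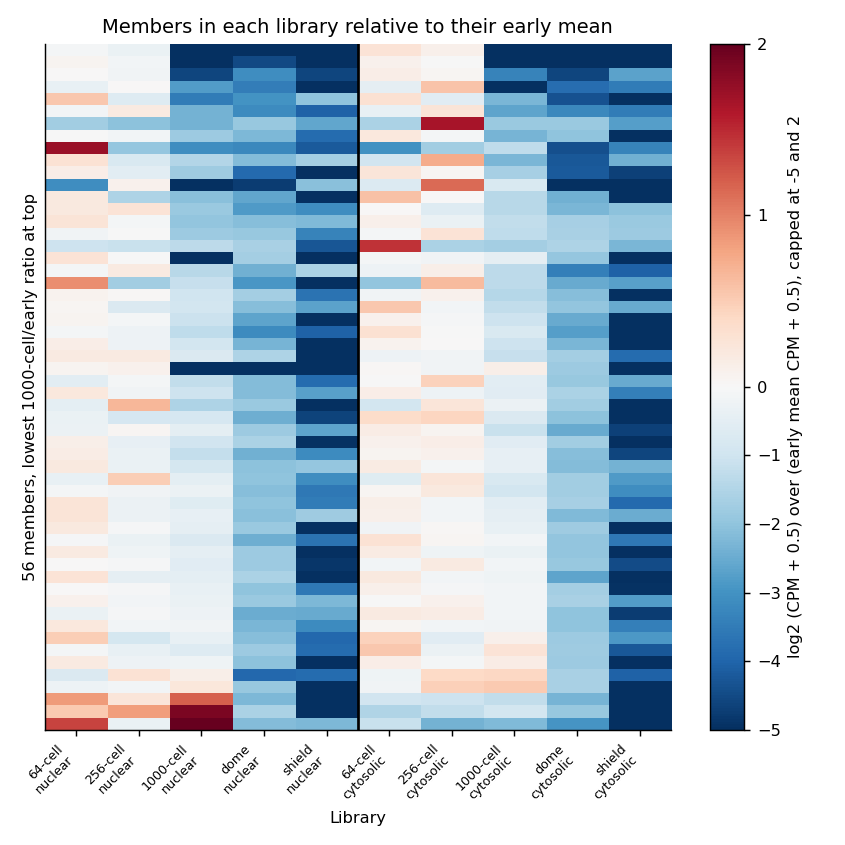
Each of the 56 members (rows, ordered by the ratio of their 1000-cell to their early mean CPM) in the 10 libraries (columns, nuclear left and cytosolic right, in order of stage), as log2 of (CPM + 0.5) over (early mean CPM + 0.5), capped at -5 and 2. Rows at the top are already low at 1000-cell, rows in the lower part are near their early level until 1000-cell, and the bottom rows are above it in the 1000-cell nuclear library.

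Whether clearance was under way before dome was read from the 1000-cell libraries. At 1000-cell 51 of the 56 members were lower than at 64- and 256-cell in a fit over both fractions, where 49.5% of all 7892 transcripts tested were lower. By 2-fold or more, 25 members were lower and 0 were higher, where 9.4% of all tested were lower and 8.63% higher by as much. Of the other early-abundant transcripts, 2.17% were lower by as much and 0.797% higher. The median log2 fold change of the members was -0.85 (quartiles -1.63 and -0.38), against -0.00 for the other early-abundant transcripts (-0.16 and 0.14). Setting the 2 members at 0 counts to their floor of 3 counts per library could not move this median. Both stay far below it in either case. Both 1000-cell libraries lay below all 4 early libraries for 33 members, against 8.87% of all tested, and above all 4 for 0 members, against 8.51%.

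Single members seldom passed the test. In edgeR's quasi-likelihood test with Benjamini-Hochberg adjustment over all 7892 transcripts, 1 of the 56 passed an adjusted p-value of 0.05, lower at 1000-cell, against 0.0253% of all tested (2 transcripts). At an unadjusted p-value under 0.05, 30 members were lower and 1 was higher, against 4.22% and 2.84% of all tested. These 31 members were 19 without the 1000-cell nuclear library (387 of all 7752), 18 with all 10 libraries in 1 fit (436 of 9568) and 13 with cytosolic libraries only (366 of 7369). DESeq2's Wald test called 21 members, all lower, against 2.93% of all tested in either direction and 2.1% lower. Both libraries of a stage entered as independent samples although they came from the same pool of embryos, and no stage had a replicate.

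The member that passed was ENSDART00000102734, described above, with 0 counts in both 1000-cell libraries (edgeR adjusted p = 0.0405). Against a floor of 3 counts per library its level was at least 87.4-fold lower in nuclei and at least 184-fold lower in cytosol than its lowest early value. Its adjusted p-value was 0.0946 to 0.555 when any 1 of 5 libraries (all early ones and the 1000-cell nuclear) was left out, and was 0.0429 without the 1000-cell cytosolic library. Without the 1000-cell cytosolic library 3 members passed, of 11 among all 7706 transcripts then tested. With library totals in place of scaling factors its value was 0.0524 in edgeR. ENSDART00000148111, also at 0, was at least 44.8-fold lower in nuclei and at least 74.4-fold lower in the cytosol (edgeR adjusted p = 0.104). Besides these 2, ENSDART00000011729 and ENSDART00000128167, named for their values, had the lowest 1000-cell levels, at 0.0293 and 0.0713 of their early mean.

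The size of this drop depends on how the early level was read. The 64- and 256-cell libraries set the level that the members had to fall from, so the choice favours transcripts with a high reading in those libraries. With only the 64-cell libraries taken as the early level, 75 transcripts met the rule, 46 of them members. At 1000-cell their median log2 ratio to the 256-cell level, which that choice did not use, was -0.40, with 55 of 75 lower (73.3%), against 0.06 and 40.2% lower for the remaining 4260. With only the 256-cell libraries as the early level, 73 met the rule, 45 of them members. Their median log2 ratio to the 64-cell level was -0.59, with 61 of 73 lower (83.6%), against -0.05 and 57.9% lower for the remaining 4209. The direction was thus the same in both, and both medians were nearer to 0 than that of the 56 members. These splits were chosen after the data were seen.

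**Figure D3:**
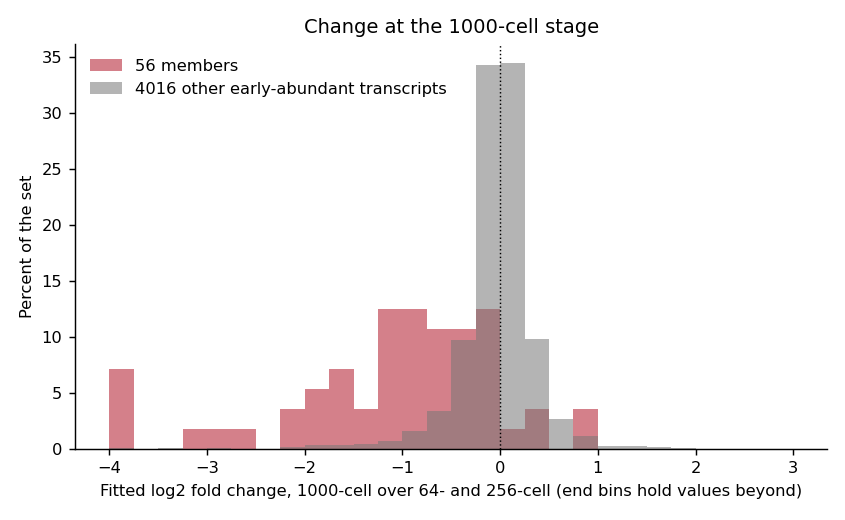
Fitted log2 fold change at 1000-cell over 64- and 256-cell (both fractions, edgeR) as a percentage of each set: 56 members (red) and 4016 other early-abundant transcripts (grey); the end bins hold values beyond the axis. The members' median is -0.85 and the others' is -0.00, and 5 members lie above 0.

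Within the set the 1000-cell levels were widely spread. Relative to the early mean, the 1000-cell level had a median ratio of 0.556 with quartiles of 0.322 and 0.766. In 15 members it was at most 0.333, the limit that the rule sets for the later stages, and in 12 it was 0.8 or more. ENSDART00000065933, chosen after its values were seen as a member that read nearly alike in both fractions, illustrates the intermediate course. In order of stage it had 145, 129, 65.0, 21.8 and 0.677 CPM in the nuclear libraries and 148, 135, 67.4, 23.6 and 1.00 CPM in the cytosolic libraries. At every stage its nuclear and cytosolic values lay close together (log2 fold change at 1000-cell -1.07, SE 0.11, edgeR adjusted p = 0.299).

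Both fractions changed to a similar degree at 1000-cell. The median ratio to the early mean of the same fraction was 0.541 in nuclei (51 of 56 below 1) and 0.597 in cytosol (48 of 56 below 1). The other early-abundant transcripts had median ratios of 0.973 and 1.02. Across members, the log2 change in nuclei and the log2 change in cytosol correlated with Pearson's r of 0.435 and Spearman's rho of 0.507 (n = 56). Over the 46 members without an uneven early level or a one-sided 0, defined below, r was 0.873 and rho 0.772. A one-sided 0 at 1000-cell was itself a reason for leaving a member out, so these higher values are partly set by that choice. The points share the 2 libraries at 1000-cell and are members of 1 list, not replicates.

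The fitted change was above 0 in 5 members, and none of these passed the test. ENSDART00000145299 had 281, 349, 722, 64.4 and 3.55 CPM in the nuclear libraries in order of stage and 68.3, 83.1, 103, 51.5 and 5.38 CPM in the cytosolic libraries. Its 1000-cell values were the highest of the 5 stages in each fraction (log2 fold change 0.84, SE 0.24, edgeR adjusted p = 0.613). ENSDART00000132487 had 21.5, 23.7, 30.7, 6.7 and 0 CPM in nuclei and 22.8, 36.3, 37.9, 8.11 and 0 CPM in the cytosol (log2 fold change 0.40, SE 0.26, edgeR adjusted p = 0.78). The other 3, named for their values, were ENSDART00000152521, ENSDART00000132229 and ENSDART00000151278, with log2 fold changes of 0.23, 0.98 and 0.27. All 5 were then at most 0.297 of their early mean at dome, as the rule requires. That mean covers both fractions, so high nuclear values raise it. In the cytosol alone, ENSDART00000145299 had 51.5 CPM at dome, against 68.3 and 83.1 CPM at 64- and 256-cell. This was 0.681 of its cytosolic early mean, the highest such ratio of the 56 members. Its cytosolic values alone thus go against calling it cleared by dome. In the cytosol ENSDART00000152521 had 843 CPM at dome, against 2153 and 2079 CPM at 64- and 256-cell. ENSDART00000132229 had 13.4 CPM there, against 48.9 and 20.4 CPM. Both were lower at dome, but above the rule's limit if it is applied to the cytosolic early mean alone. ENSDART00000132487 and ENSDART00000151278 were below the limit applied in this way.

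From 64-cell to 1000-cell, by which stage many members were already lower, their median nuclear/cytosolic balance was close to that of other transcripts. Single members lay far to either side. Over the 64-, 256- and 1000-cell stages, the median log2 fold change of nuclear over cytosolic libraries was -0.05 for the members (quartiles -0.30 and 0.13) and -0.03 for the other early-abundant transcripts (-0.16 and 0.13). By edgeR's quasi-likelihood test with stage as a block, 0 of the 56 members passed an adjusted p-value of 0.05, and so did 0% of the 7892 tested. At an unadjusted p-value under 0.05, 3 members were higher in nuclei and 3 lower, against 4.07% and 2.26% of all tested. DESeq2 called 3 members, all higher in nuclei, against 2.53% of all tested in either direction (0.659% of all tested were lower in nuclei). By fitted size, 3 members were 2-fold or more higher in nuclei and 4 lower, against 9.03% and 7.4% of all tested and 1.69% and 0.797% of the other early-abundant transcripts. The rule's early mean favours members with a high value in 1 fraction at 64- or 256-cell, so these differences are a description.

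A few members stood apart in nuclei. The rule's early mean covers both fractions, so it favours members with high early nuclear values. The count and the fits that follow are therefore a description. The nuclear value was 2-fold or more above the cytosolic one at each of the 3 stages for 3 members, against 18 of the other 4016 (0.448%). These were ENSDART00000145299 (log2 fold change 2.38, SE 0.22, edgeR adjusted p = 0.424), ENSDART00000152521 (1.90, SE 0.28, edgeR adjusted p = 0.518) and ENSDART00000132229, which is named for this count. ENSDART00000132229 had 275, 85.9, 746, 23.8 and 22.3 CPM in the nuclear libraries in order of stage, against 48.9, 20.4, 23.2, 13.4 and 2.00 CPM in the cytosolic libraries. Each of the 3 had its highest nuclear value at 1000-cell. At dome ENSDART00000145299 and ENSDART00000152521 were nearly level between the fractions, at 64.4 against 51.5 CPM and 894 against 843 CPM.

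Lower in nuclei, the members with the smallest p-values were ENSDART00000099692 and ENSDART00000124492, and neither passed. ENSDART00000099692 had 89.3, 74.6 and 56.0 CPM in the nuclear libraries at 64-, 256- and 1000-cell, against 114, 96.8 and 84.2 CPM in the cytosolic libraries (log2 fold change -0.37, SE 0.11, edgeR adjusted p = 0.756). For ENSDART00000124492, whose values stand above, the log2 fold change was -0.82 (SE 0.27, edgeR adjusted p = 0.789). The cytosolic library was the higher one at all 3 stages for 16 members (28.6%) and the nuclear one for 5 (8.93%). Among the other early-abundant transcripts these shares were 29.5% and 9.99%.

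**Figure D4:**
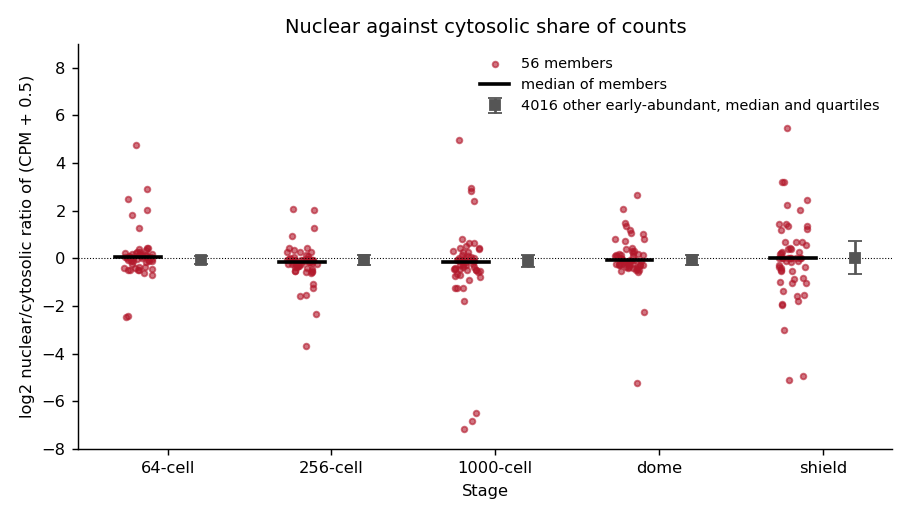
Log2 nuclear/cytosolic ratio of CPM plus 0.5 at each stage for the 56 members (points; bar, median) beside the median and quartiles of the 4016 other early-abundant transcripts (squares). The members' medians lie between -0.17 and 0.05 at the 5 stages, with single members far from 0 at each stage.

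Stage by stage, the members' median nuclear/cytosolic balance stayed near that of other transcripts, but a larger share of members lay far to either side. In order of stage the median log2 ratio was 0.05, -0.17, -0.15, -0.09 and 0.00. Its SD over members was 1.05, 0.84, 1.89, 1.02 and 1.72 in the same order, against 0.45, 0.49, 0.73, 0.66 and 1.38 for the other early-abundant transcripts. The quartiles differed less, at -0.17 and 0.20 against -0.23 and 0.10 at 64-cell, and at -0.61 and 0.68 against -0.66 and 0.73 at shield. At 64-cell 85.7% of the members lay within 2-fold between the fractions, against 96.8% of the others. The early and late libraries chose the members, so the spread at those stages is a description. The rule used the mean of the early values, and a single high one makes its limit easier to meet. The 1000-cell libraries took no part in that choice, but 3 members were 2-fold or more higher in nuclei there as at both early stages. The SD at 1000-cell was 1.89 against 0.73, while the quartiles were -0.51 and 0.18 against -0.35 and 0.15. That SD includes 3 members with 0 nuclear counts beside 10 CPM or more in the cytosol. Members were also less abundant than those transcripts, with medians of 2.37 and 2.44 CPM at shield against 57.9 and 49.2 CPM. The parts of the choice and of low counts in the spread were not tested.

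The members were lower at the late stages to a similar degree in both fractions. At dome the median ratio to the early mean of the same fraction was 0.223 in nuclei and 0.224 in cytosol, and at shield it was 0.0607 and 0.0434. These ratios used column totals. The cytosolic shield library had a TMM scaling factor of 0.714, against 0.998 for the nuclear one, so TMM scaling would raise its CPM. The change of the nuclear/cytosolic ratio at dome and shield against 64- and 256-cell had a median log2 value of -0.24 over the members (quartiles -0.72 and 0.39) and of -0.26 over the other early-abundant transcripts. All 8 libraries in this contrast chose the members, and the rule bounded both fractions at the late stages, so its values are a description and nothing is read from the counts that follow. In edgeR 0 of the 56 members and 0% of the 9427 transcripts in the fit passed an adjusted p-value of 0.05, and DESeq2 called 4 members (1 higher and 3 lower) beside 1.2% of all. At an unadjusted p-value under 0.05 there were 2 members with a higher and 3 with a lower ratio, beside 2.63% and 1.8% of all. These 5 members (418 of all) were 21 without dome (2195 of all) and 10 without shield (480 of all). By fitted size the ratio was 2-fold or more higher in 9 members and lower in 11, beside 27.7% and 17.1% of all and 6.18% and 12.7% of the other early-abundant transcripts. With library totals in place of TMM scaling the median over all transcripts was 0.31, against 0.03 with it, and that of the members was -0.01. Without the 64-cell stage the members' median was -0.05, without shield it was -0.08 and without the stage block it was -0.07.

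The largest fitted changes of the ratio, those of ENSDART00000105652 and ENSDART00000084954, were in members that read 0 or nearly 0 in only 1 fraction at a stage. ENSDART00000105652 had 67.7, 69.2, 0, 0 and 0 CPM in the nuclear libraries in order of stage, against 66.7, 58.1, 70.9, 18.3 and 1.25 CPM in the cytosolic libraries. It was thus even between the fractions early on, at 0 counts in nuclear libraries from 1000-cell and still at its full cytosolic level at that stage. ENSDART00000084954 went the other way at the late stages, with 10.8, 102, 0, 3.16 and 22.0 CPM in nuclei against 59.8, 213, 56.1, 0.0863 and 0 CPM in cytosol. For ENSDART00000152521, whose values stand above and are near 0 in no library, the late ratio was lower by 1.84 on the log2 scale. This did not pass (SE 0.46, edgeR adjusted p = 0.905). Its high early nuclear values raised the mean that the rule used, so this change is a description. The fitted late ratio of ENSDART00000148111 rests on 5 counts in the nuclear dome library.

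**Figure D5:**
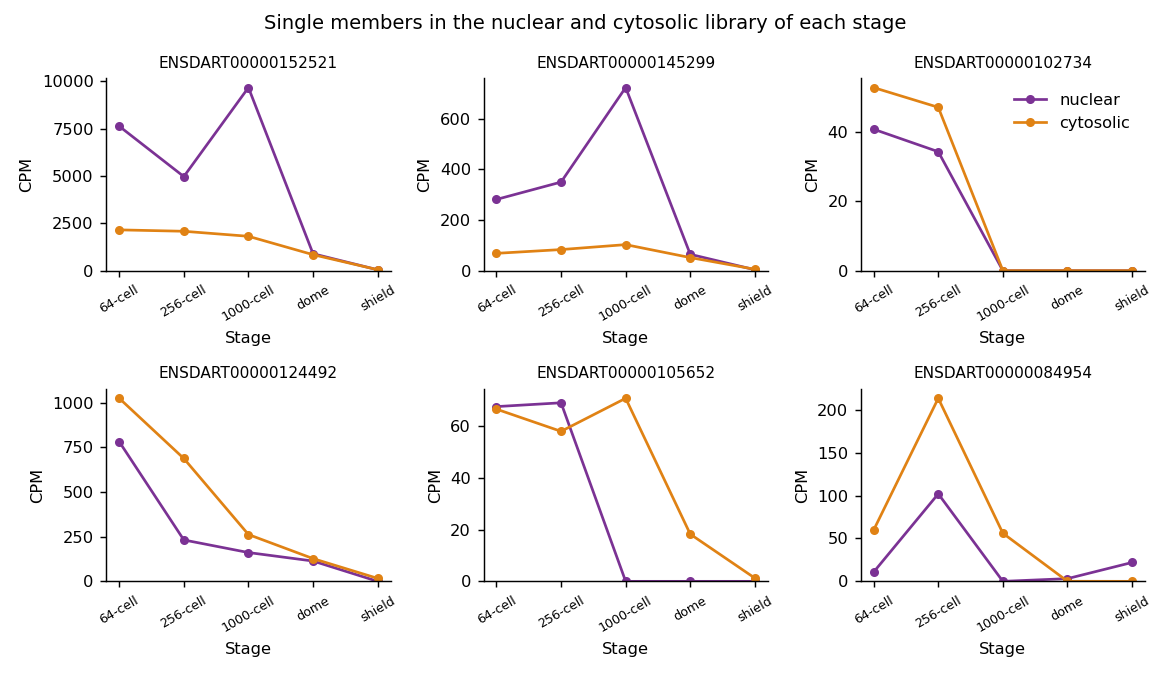
CPM (linear scale, each panel with its own axis from 0) of 6 members in the nuclear and cytosolic library of each stage, 1 library per point. The upper row shows 2 members with a nuclear maximum at 1000-cell and 1 at 0 from 1000-cell on; the lower row shows 1 lower at each later stage in both fractions and 2 with 0 nuclear counts at 1000-cell beside 70.9 and 56.1 CPM in the cytosol.

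A minority of members had uneven values across fractions or early stages. At a stage up to dome, 3 members had 0 counts in 1 fraction beside 10 CPM or more in the other, against 16 of the other 4016 (0.398%). Besides ENSDART00000105652 and ENSDART00000084954 this was ENSDART00000103831, with 0 CPM in nuclei against 45.2 CPM in cytosol at 1000-cell, and with 19.1 against 16.1 CPM at dome. In 8 members the 64-cell and 256-cell values of a fraction differed more than 3-fold, against 110 of the others (2.74%). The rule used the mean of these values, and a single high one makes its limit easier to meet, so this difference is a description. In 2 of these 8 members, singled out after their values were seen, the dome level was close to all early values but 1. The first was ENSDART00000108950. Its 256-cell cytosolic value was 597 CPM, while the other 3 early libraries had 45.5 to 62.5 CPM and the dome libraries had 51.0 CPM in nuclei and 52.5 CPM in cytosol. The dome values were thus close to those of its other 3 early libraries, which goes against calling it cleared by dome. The same holds for ENSDART00000123598, just inside the limit, with 96.4 CPM in the 64-cell cytosolic library and 11.5 to 17.1 CPM in its other 3 early libraries, and with 11.1 CPM in nuclei and 11.6 CPM in cytosol at dome. How the authors' counting divided reads among overlapping transcript models is not given in the sources used here, and its part in such values was not tested.

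Without the 10 members that were uneven in either way, 42 of the remaining 46 were lower at 1000-cell, with a median log2 fold change of -0.77, and 17 were lower by 2-fold or more. Both 1000-cell libraries lay below all 4 early libraries for 31 of these 46. The lower level of the set at 1000-cell was thus present without the uneven members.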

How the data were processed

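Counts of reads per Ensembl transcript were used as the authors deposited them, 1 column per library, whole numbers with differing totals. The submitters' processing notes name Trimmomatic 0.27, STAR 2.6.0a, StringTie and the build Zv9. Annotation release and use of strand are not given in the sources used here, so transcripts of 1 gene, near-identical copies and overlapping or antisense models are uncertain. Columns were matched to libraries by stage and fraction (0 columns unmatched).

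CPM used column totals. Cytosolic shield CPM, also where shield is set against dome, was thus not rescaled for that library's TMM factor of 0.714. Tests used edgeR 4.0.16 in R 4.3.3 (quasi-likelihood, TMM scaling, at least 10 counts in at least 2 libraries, Benjamini-Hochberg). The 1000-cell test used 6 libraries with fraction as a covariate, the nuclear against cytosolic test the same 6 with stage as a block, and the fit of the ratio 8 libraries, all used to choose the members, with stage as a block. They left 3, 2 and 2 residual degrees of freedom. Stages stand in for replicates, so p-values measure the spread between these libraries. SE is the fold change divided by the square root of F. Ratios by stage used CPM plus 0.5. Fits were tested on simulated data. DESeq2 1.42.0, other scalings, filters, left-out libraries and other membership rules were alternatives. Named transcripts were, per test and direction, up to 2 members past the threshold or else with the smallest p-values, the 2 most abundant, the 2 with the lowest dome ratio and those at the limit. Members and lists were chosen with earlier results of these data known. Python 3.11.15 was used for summaries.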

Additional observations from a re-analysis of the deposited data

Results flagged for a closer look

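In 2 of the named members the nuclear and cytosolic libraries moved in opposite directions at 1000-cell, each beyond both early values of its fraction. For ENSDART00000152521 the 1000-cell level was 1.54 times the mean of 64- and 256-cell in nuclei and 0.857 times in cytosol. For ENSDART00000105652 it was 0 times in nuclei, with 0 counts, and 1.14 times in cytosol. The contrast between fractions was not tested, since each value rests on 1 library. Among all 56 members, 1 was higher in nuclei and lower in cytosol in this way (1.79%) and 2 were the reverse (3.57%), against 6.42% and 10.9% of the other early-abundant transcripts, so the pattern was no more frequent in the set.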

How the results depend on the processing

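The number of members past the threshold at 1000-cell (1 in edgeR) was 0 with library totals, with nuclear or cytosolic libraries only and with all 10 libraries in 1 fit, 21 with DESeq2, and 0 to 3 with 1 library left out (0 to 11 of all transcripts). The number lower (48 to 51) and the median (-0.89 to -0.75) kept their direction with any library left out. Members chosen with 64-cell or 256-cell only gave medians of -0.40 and -0.59. For nuclear against cytosolic, DESeq2 called 3 and edgeR 0 with any stage left out (median -0.17 to -0.03). For the change of the ratio, a description since all its libraries chose the members, DESeq2 called 4 and edgeR 0. Its median of -0.24 was -0.288 to -0.0464 with a stage left out (lowest in size without 64-cell), -0.00893 with library totals and -0.0679 without the stage block. Leaving out shield is the fit with dome alone as the late stage. The rule found 207 transcripts with a limit of 0.5, 24 with 0.25, 1200 with shield libraries only and 23 against the lowest early library. It found 50 and 53 with TMM and DESeq2 scaling (50 and 49 of them members) and 57 at equal depth (49). Of all transcripts, edgeR called 2 at 1000-cell and DESeq2 231, and for the 2 other comparisons edgeR called 0 and DESeq2 200 and 113. The sample titles carry no replicate numbers, and the labels do not explain the 2 that ends every count column name. Stage was the block that paired the fractions. Without it edgeR called 0 members and 5 of all transcripts for nuclear against cytosolic. With 3 counts worth 0.21 to 0.508 CPM by library, levels below a library's own value cannot be told from 0.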
